A study of Mus musculus with 24 samples.

Results

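Unstimulated bone marrow-derived macrophages (BMDMs) of TDG iKO mice were compared with those of wild-type (WT) controls. The comparison takes the libraries labelled with either genotype at 0 h, before any KLA, in the experiment on Tdg. It comprises 2 TDG iKO and 2 WT libraries, 4 of the 24 samples of the series, and each iKO library was set against the WT library that carries its replicate number (pair 1 and pair 2). Adult C57BL/6 mice of the iKO group carried floxed Tdg alleles (Tdg fl/fl), the tamoxifen-inducible recombinase CreERT2 and a Rosa26-H2B-EGFP/GPI-mCherry reporter that Cre switches on. Mice of both genotypes were injected with tamoxifen. The recombinase was not restricted to macrophages. The alleles that the controls carried beyond the label wild type are not given in the sources used here. Among the libraries used here only the iKO label marks the deletion. The study also measured Tdg transcripts by qRT-PCR, and the extent of the deletion in these BMDMs is not analysed here. Marrow was grown in L929-conditioned medium with M-CSF, non-adherent cells were washed off, and the macrophages were replated overnight. KLA (Kdo2-lipid A), an agonist of the endotoxin receptor TLR4, was added only for the 6 h libraries of the same 2 groups, which are cited here for comparison. The labels do not say that the replicates came from separate animals or cultures, so p-values measure the spread between these samples, which may be technical.

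TDG (thymine DNA glycosylase) removes thymine or uracil mispaired with guanine, and it also excises 5-formylcytosine and 5-carboxylcytosine, the late products of the TET dioxygenases. The gap it leaves is filled by base excision repair, and the sequence of TET oxidation, TDG excision and repair is a route by which methylated cytosine is replaced with unmodified cytosine. Cultured macrophages differentiate from marrow progenitors through a granulocyte-monocyte stage, lose the enzymes of the neutrophil primary granule on the way, and acquire phagocytic and scavenger receptors.

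The 4 libraries held between 4982950 and 19405606 read pairs assigned to genes, and between 11334 and 13261 genes with a count. WT replicate 2 was the shallow library: it had the 4982950 pairs and the 11334 genes, 9.02% of its pairs did not align against 1.05% to 4.98% in the other 3, and its 10 most counted genes took 14.6% of the assigned pairs against 9.93% to 10.9%. At these depths a share from 3 counts lies between 1.55e-05% and 6.02e-05% of the assigned pairs, a floor that covers counting error only. All levels below are counts divided by the library's size factor (normalised counts), and all pair ratios are log2 differences of normalised counts plus 1, iKO minus WT.

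Pair 2 was far wider than pair 1. Over the 9263 genes whose normalised counts averaged 50 or more, the SD of the log2 ratio was 0.21 in pair 1 and 0.81 in pair 2, while the 2 WT libraries differed from each other with an SD of 0.85 and the 2 iKO libraries with an SD of 0.58. Pair 1 held 29 genes that differed at least 2-fold, 21 higher and 8 lower in iKO, and pair 2 held 1853. The ratio of pair 2 moved with gene length (Spearman's rho across genes 0.552, against -0.144 in pair 1): with the genes divided into 10 groups by exonic length, the shortest group (median 1145 bases) had a median log2 ratio of -1.0, and the longest group (median 9883 bases) 0.67. Set against the 2 unstimulated WT libraries of the separate Tet experiment, WT replicate 2 was the library with the trend, at 0.87 in the shortest and -0.60 in the longest group. Removing a smooth length trend from each library brought the SD of pair 2 only to 0.68. At 6 h the 2 pairs had SDs of 0.32 and 0.24 and little length trend.

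**Figure D1:**
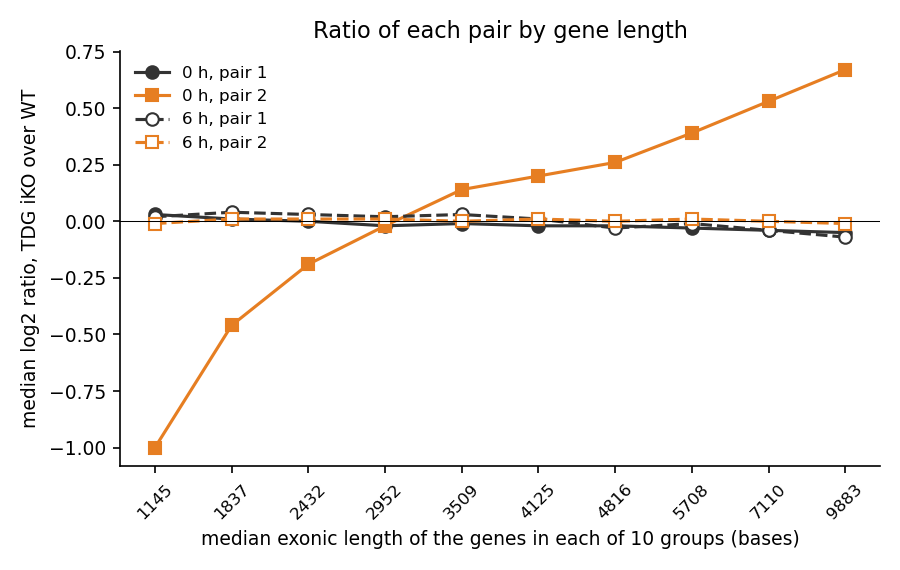
Median log2 ratio of TDG iKO over WT (y axis) in 10 groups of genes ordered by exonic length (x axis, median length of each group in bases), for each pair at 0 h (filled) and at 6 h of KLA (open). Pair 2 at 0 h runs from -1.0 to 0.67, and the other pairs stay within 0.07 of 0.

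The deleted gene could not be checked in these counts. Tdg lies at chr10:82092573-82113544 on the plus strand of mm9, and its raw counts were 0 and 0 with the iKO genotype and 0 and 1 in WT. The gene was therefore at or under 3 counts in both genotypes, and a fold has no meaning here. The mm9 genome holds 4 intronless copies of the Tdg transcript outside the gene, of which those at chr10:41772364-41775273, chr15:82346864-82349711 and chr7:83388075-83390875 matched it over at least 98.8% of the aligned bases and the fourth, at chr19:33746768-33748017, was partial. Of the 1145 stretches of 50 bases along its coding sequence, 1045 (91.3%) occurred without a mismatch in at least 1 copy. The first 60 coding bases of the gene and of the 3 long copies, on the coding strand, show how little separates them (capitals mark a base that differs from the gene):

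Tdg gene: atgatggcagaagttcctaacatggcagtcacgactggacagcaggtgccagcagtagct
copy on chromosome 10: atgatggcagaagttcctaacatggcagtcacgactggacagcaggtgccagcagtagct
copy on chromosome 15: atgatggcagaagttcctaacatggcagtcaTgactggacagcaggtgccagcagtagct
copy on chromosome 7: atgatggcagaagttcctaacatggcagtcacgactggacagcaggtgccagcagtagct

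Between 20.6% and 25.8% of the read pairs of these libraries aligned to several places and were assigned to no gene. Whether that sets the level of Tdg was not tested. Ndor1 (chr2:25100340-25111542, minus strand), an NADPH-dependent diflavin reductase gene at which the CreERT2 transgene is known to be inserted, had 132 and 233 normalised counts in iKO and 274 and 239 in WT. Both iKO libraries lay below both WT libraries, by 2.07-fold in pair 1 but by 1.03-fold in pair 2, and the 6 h pairs were 1.88-fold and 1.72-fold lower. Its log2 fold change of -0.49 ± 0.41 (SE, n = 2 per group) had an adjusted p of 1 in the DESeq2 fit.

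No gene passed the test on group labels alone. The DESeq2 fit without pairing tested 15026 genes and called 0 (0%) at an adjusted p of 0.05, with 265 at an unadjusted p under 0.05 (50 higher and 215 lower in iKO), and the edgeR quasi-likelihood test called 0 with 125. With the replicate number as a block, DESeq2 called 4 of 15026 genes (0.0266%): Cyp2s1 and Mpo rose, and Marco and Rn45s fell in iKO. The edgeR fit with the block called 0, with 292 at an unadjusted p under 0.05. The labels give the replicate numbers but not what they stand for, so these 4 calls depend on a pairing that rests on the numbers alone.

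The pair ratios gave the other view. Of the 9263 genes, 1992 (21.5%) were higher and 1945 (21%) lower in iKO in both pairs. The 5 genes at least 2-fold higher in both pairs (0.054%) included Cyp2s1, Pianp, Elane and Mpo, and the 1 gene at least 2-fold lower in both (0.0108%) was Rn45s. With the pairs crossed (each iKO library against the WT library of the other number) 7 genes were at least 2-fold higher and 5 lower in both, so same-numbered pairs shared no more 2-fold genes than crossed ones. Marco was just outside the limit with a log2 ratio of -0.98 in pair 1. Both iKO libraries lay above both WT libraries for 883 genes (9.53%) and below both for 1123 (12.1%). Across all 9263 genes the 2 pairs' ratios had a Pearson r of -0.125, and -0.0698 once the length trend was removed, as a description across genes that share their libraries within each pair. The genes described next are from the 10 highest and 10 lowest by the smaller of the 2 pair ratios, so their direction in both pairs is how they were chosen.

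**Figure D2:**
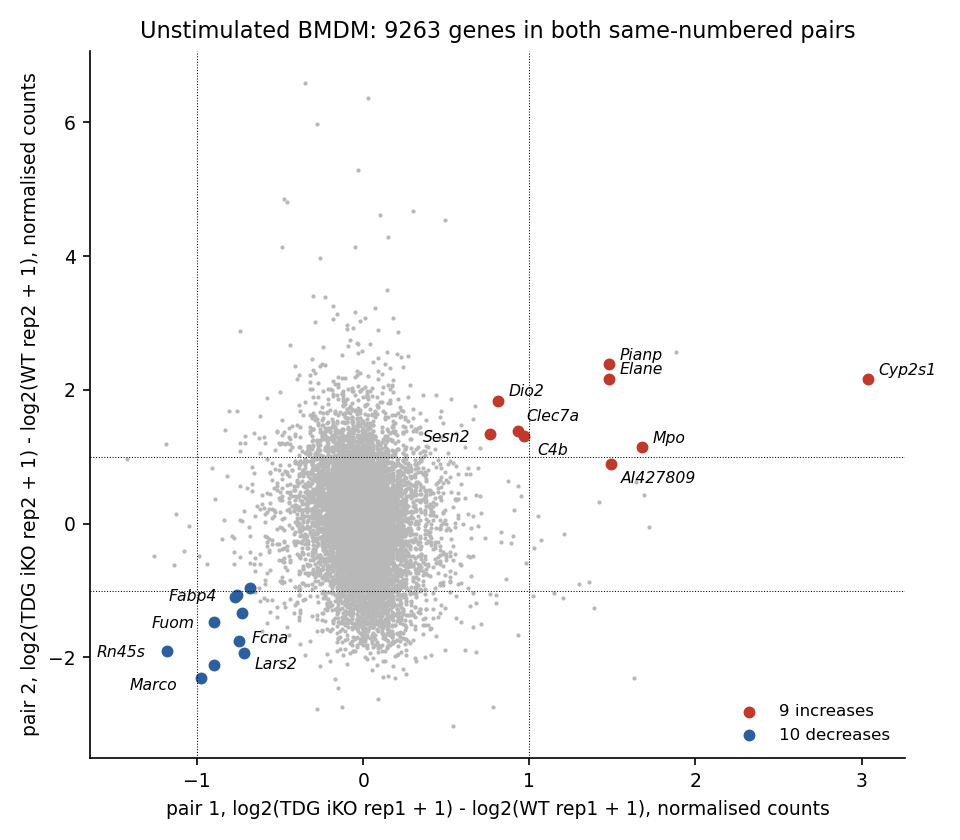
Log2 ratio of TDG iKO over WT in pair 1 (x axis) against pair 2 (y axis) for the 9263 genes, with dotted lines at 2-fold and 9 of the 10 highest (red) and the 10 lowest (blue) genes by the smaller ratio marked. The cloud is narrow along pair 1 and wide along pair 2, and Cyp2s1 stands apart at 3.04 and 2.16.

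Cyp2s1 (chr7:26587494-26601932, minus strand), a cytochrome P450 that the aryl hydrocarbon receptor can induce, was the gene with the largest shared increase. Its normalised counts were 172 and 260 in the iKO libraries and 19.9 and 57.5 in the WT libraries, from raw counts of 187, 484, 21 and 25. Both iKO libraries were above both WT libraries, by 8.24-fold in pair 1 and 4.46-fold in pair 2. After 6 h of KLA the levels were 69.2 and 53.3 in iKO against 11.9 and 6.33 in WT, 5.46-fold and 7.41-fold higher. The 2 unstimulated WT libraries of the Tet experiment had 1.34 and 6.32, below every library of the Tdg experiment at 0 h. DESeq2 gave a log2 fold change of 2.55 ± 0.59 (SE, n = 2 per group) with an adjusted p of 0.111, and with the block 2.58 ± 0.54 with an adjusted p of 0.00648. Over the 10 fits of all libraries or of the 4 at 0 h the adjusted p ran from 0.00648 to 0.912, and 1 of them was under 0.05. Without WT replicate 2 its log2 fold change was 3.45, and over the fits that left out 1 library it ran from 1.88 to 3.47. Of 2 other genes that this receptor can induce, Ahrr, its repressor, had ratios of 0.37 and -0.53, and Tiparp, which ADP-ribosylates it, had -0.08 and 0.78.

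Marco (chr1:122371115-122401661, minus strand), a class A scavenger receptor that binds bacteria and particles, had the smallest adjusted p among the decreases. It had 2322 and 2038.5 normalised counts in iKO and 4585 and 10076 in WT. The iKO libraries were close to each other and below both WT libraries, 1.97-fold in pair 1 and 4.94-fold in pair 2, and WT replicate 2 had the highest level of the 4. At 6 h, where the pairs showed little length trend, the levels were 4355 and 4096 in iKO against 8958 and 9673 in WT, 2.06-fold and 2.36-fold lower. The WT libraries of the Tet experiment had 2409 and 2963 at 0 h, near the iKO and not the WT level of the Tdg experiment. DESeq2 gave a log2 fold change of -1.75 ± 0.38 (SE, n = 2 per group) with an adjusted p of 0.0694, the smallest of the fit, and with the block -1.70 ± 0.32 with an adjusted p of 0.00209. Over the 10 fits the adjusted p ran from 0.000126 to 0.912, and 3 were under 0.05. Without WT replicate 2 the log2 fold change was -1.06 in place of -1.75, and over the 8 fits that left out 1 library it ran from -2.24 to -1.05 with an adjusted p of up to 1.

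The start regions of these 2 genes are shown for their content of CpG, the dinucleotide that carries most DNA methylation and is the substrate of the TET and TDG route. The windows below run from 250 bases before to 50 after the RefSeq start, in the direction of the gene, in GRCm38.p6 coordinates that are not those of the mm9 files. Each CG is in capitals. That of Cyp2s1 (chr7:25816476-25816775, minus strand) holds 17 CG, and 31.4% of the 32851 RefSeq windows of this kind hold at least as many. That of Marco (chr1:120504975-120505274, minus strand) holds 0, where the median window holds 7. The windows of Mpo and Elane, which were also higher in iKO within each pair, hold 2 and 6 CG. Those of the other increases are not given here.

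Cyp2s1: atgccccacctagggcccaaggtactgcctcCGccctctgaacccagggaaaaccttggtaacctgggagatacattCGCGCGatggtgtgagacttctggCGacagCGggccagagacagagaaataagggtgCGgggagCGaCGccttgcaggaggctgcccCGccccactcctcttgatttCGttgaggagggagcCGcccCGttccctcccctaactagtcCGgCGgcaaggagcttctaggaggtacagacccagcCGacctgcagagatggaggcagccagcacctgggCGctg
Marco: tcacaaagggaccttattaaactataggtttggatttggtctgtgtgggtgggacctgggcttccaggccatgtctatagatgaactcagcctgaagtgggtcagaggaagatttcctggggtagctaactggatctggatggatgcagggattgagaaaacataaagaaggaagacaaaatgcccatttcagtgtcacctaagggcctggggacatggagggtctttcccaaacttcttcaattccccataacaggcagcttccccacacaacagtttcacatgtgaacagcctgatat

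These letters are a description, and methylation at either start was not analysed here. Of a list of scavenger receptors, chosen with earlier results of these data known, 10 of 18 reached a mean of 50, with medians of -0.23 and 0.15. In both pairs 2 of the 10 were lower and 0 higher, against 21% and 21.5% of all genes. The first of the 2 was Marco, which was chosen for that direction. The second was Cxcl16, at -0.03 and -0.41. Colec12, a scavenger receptor of the collectin family, had 695 and 949 in iKO against 1527 and 863 in WT, so its 2-fold lower level was in pair 1 and not in pair 2 (-1.13 and 0.14), while the 6 h ratios were -0.89 and -0.47. Stab1, a receptor for modified lipoproteins and matrix fragments, had -0.61 and 0.29 at 0 h and -0.89 and -0.35 at 6 h. Msr1 and Cd36 were within 0.44 of 0 in all 4 pairs. Marco was the only scavenger receptor called in the 10 fits of all libraries or of the 4 at 0 h, in the 3 with the block, the length correction or both.

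Mpo (chr11:87607083-87617915, plus strand), the myeloperoxidase of primary granules, and Elane (chr10:79349057-79350961, plus strand), neutrophil elastase, were higher in iKO within each pair but not across groups. Mpo had 1494 and 155 normalised counts in iKO and 467 and 69.0 in WT. Both libraries numbered 1 were above both numbered 2 in either genotype, so the groups overlap, and the ratio was 3.20-fold in pair 1 and 2.23-fold in pair 2. The 6 h libraries kept that order by number, with 1255 and 106 in iKO against 559 and 49.1 in WT, 2.24-fold and 2.13-fold higher. DESeq2 gave 1.62 ± 1.78 (SE, n = 2 per group) with an adjusted p of 1 without the block and 1.49 ± 0.31 with 0.00648 with it, in a range of 0.00349 to 1 over the 10 fits, 2 of them under 0.05. Elane had 499 and 24.2 in iKO and 178 and 4.60 in WT. Its pair 2 ratio rests on raw counts of 45 and 2, which give 5.26-fold with a 95% counting interval of 1.37 to 44.7 (exact binomial). Its adjusted p was 1 in DESeq2 with and without the block. The Tet experiment's WT libraries had 49.0 and 166 counts of Mpo. Without iKO replicate 1 the log2 fold changes of Mpo and Elane turned to -0.79 and -1.92 in the fit without the block.

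The other genes of that stage separated the pairs. Prtn3, the third serine protease of the granule, had 531 and 46.8 in iKO against 160 and 48.3 in WT, a ratio of 1.72 in pair 1 and -0.05 in pair 2. Ctsg, cathepsin G, had 1.64 and 0.63, and Ms4a3, a marker of granulocyte-monocyte progenitors, had 1.69 and 0.43, the latter from 18 and 3 raw counts. At 6 h these 3 genes were higher in iKO in both pairs, by 1.06 and 1.37, 1.19 and 0.58, and 1.19 and 1.91. Cd34, a stem and progenitor cell antigen, had 1.07 and -0.24 at 0 h. Of the 12 progenitor and primary granule markers, 6 reached a mean of 50, with medians of 1.66 and 0.53 against -0.02 and 0.10 over all genes. Of these 6, 4 were higher in both pairs, against 21.5% of all genes. This count is a description only, because Mpo and Elane are among the 4 and were chosen for that direction. Ms4a3 is also among them and reached the mean through iKO replicate 1 (155, against 9.68, 47.5 and 6.90 elsewhere at 0 h). Its pair 2 fold had a 95% counting interval of 0.409 to 7.43. All 12 markers were counted in at least 1 library, and their summed level was 3488.5 and 346.7 in iKO and 1160.7 and 184.1 in WT.

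Markers of mature neutrophils moved with pair 1 but not with pair 2. S100a8, a calcium-binding alarmin subunit of neutrophils and monocytes, had 1111 and 113 in iKO against 424 and 272 in WT. Its partner S100a9 had 1494 and 15.6 against 481 and 80.5. Both were higher in iKO in pair 1 and lower in pair 2, and the libraries numbered 1 were above those numbered 2. Ltf and Ngp, proteins of the secondary granule, had 109 and 162 in iKO replicate 1, 17.1 and 31.3 in WT replicate 1, and less than 1 in both libraries numbered 2. The 11 measured neutrophil markers summed to 5064.5 and 2409.4 in iKO and 2541.6 and 2966.1 in WT. Their part in the result for Mpo and Elane was not tested, and in bulk RNA fewer cells of a type and less RNA per cell cannot be told apart.

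**Figure D3:**
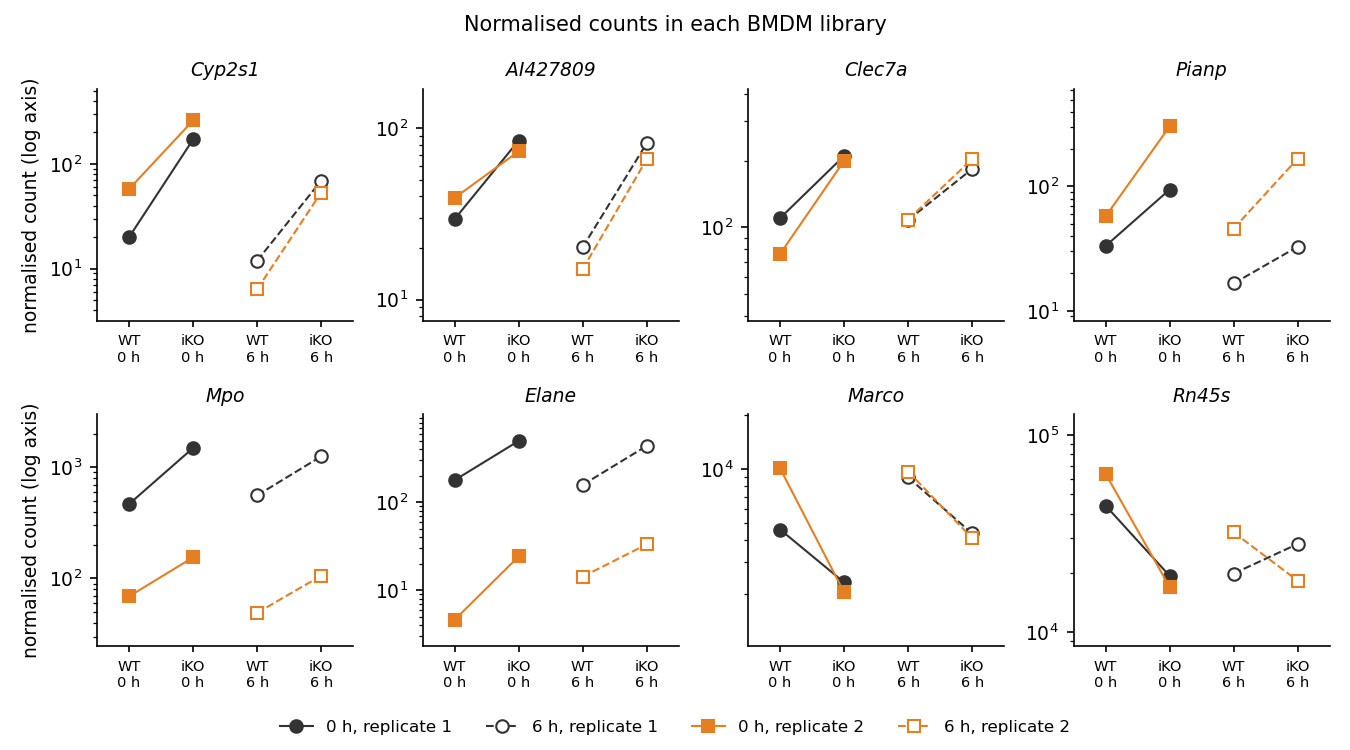
Normalised counts (y axes, log scale) of 8 genes in each BMDM library at 0 h (filled) and at 6 h of KLA (open), with a line joining the WT and iKO libraries of one replicate number. For Cyp2s1, AI427809, Clec7a, Pianp, Marco and Rn45s the 2 genotypes separate at 0 h, whereas Mpo and Elane are ordered by replicate number and are higher in iKO on each line.

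None of the other increases described here was called by DESeq2 with or without the block. Clec7a (chr6:129411611-129422790, minus strand), the fungal glucan receptor Dectin-1, had 210 and 199 in iKO and 110 and 75.9 in WT. Its groups did not overlap, and the ratios were 0.93 and 1.38 at 0 h and 0.76 and 0.90 at 6 h.

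Pianp, a ligand of the myeloid inhibitory receptor PILR alpha, had 94.5 and 304 in iKO and 33.2 and 57.5 in WT, ratios of 1.48 and 2.38 that were 0.94 and 1.85 at 6 h. AI427809, a gene with no protein name in the files, had 84.4 and 73.1 against 29.4 and 39.1, and its ratios of 1.49 and 0.89 were 1.96 and 2.06 at 6 h. Dio2, the deiodinase that makes active thyroid hormone, had 117 and 439 against 66.4 and 122, so the groups overlap, with ratios of 0.81 and 1.84 and, at 6 h, 1.18 and 1.39. These 3 genes and Clec7a were higher in iKO in all 4 pairs. C4b, a complement component, and Sesn2, a stress-induced sestrin, were higher in both pairs at 0 h (0.97 and 1.31, and 0.76 and 1.34) and within 0.12 of 0 in both pairs at 6 h. The DESeq2 test of the 0 h against the 6 h effect called 0 of 15026 genes (37 at an unadjusted p under 0.05), and edgeR was not run on that difference.

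Among the decreases, Rn45s, the precursor of ribosomal RNA, had 19304 and 16972 in iKO against 43855 and 63532 in WT. The iKO libraries were below both WT libraries, 2.27-fold and 3.74-fold. At 6 h the pairs went opposite ways (0.50 and -0.81), with a WT replicate 1 level of 19850. DESeq2 gave -1.57 ± 0.37 (SE, n = 2 per group) with an adjusted p of 0.111, and 0.00648 with the block, in a range of 0.00313 to 0.912 with 2 of 10 fits under 0.05. The libraries were made from polyA-selected RNA, in which this transcript without a polyA tail remained at 0.163% to 0.554% of assigned pairs. How much of the difference lies in the selection was not tested.

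The remaining 8 decreases had their larger ratio in pair 2, and WT replicate 2 was the highest library for each. Fabp4, a fatty acid carrier of macrophages and fat cells, had 627 and 754 in iKO against 1069 and 1618 in WT. Its exonic length is 637 bases, and with the length trend removed its ratios were -0.82 and 0.21, so the lower level in pair 2 does not hold. Lars2, the mitochondrial leucyl-tRNA synthetase, had 761 and 2246 against 1257 and 8585, and Ptges, an inducible prostaglandin E synthase, 90.8 and 216 against 155 and 451. In both genes the iKO and WT levels overlap across replicates. Fcna, the lectin ficolin A, had 58.7 and 52.7 against 99.7 and 180. It and Fuom, a fucose mutarotase (32.1 and 30.1 against 60.7 and 85.1), had groups that did not overlap, but their 6 h ratios were -0.42 and 0.21, and -0.21 and 0.41. Ccdc173, Ptp4a1 and Msantd3 completed the set, with pair 1 ratios of -0.90, -0.73 and -0.68. None of the 8 was called by DESeq2 with or without the block.

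**Figure D4:**
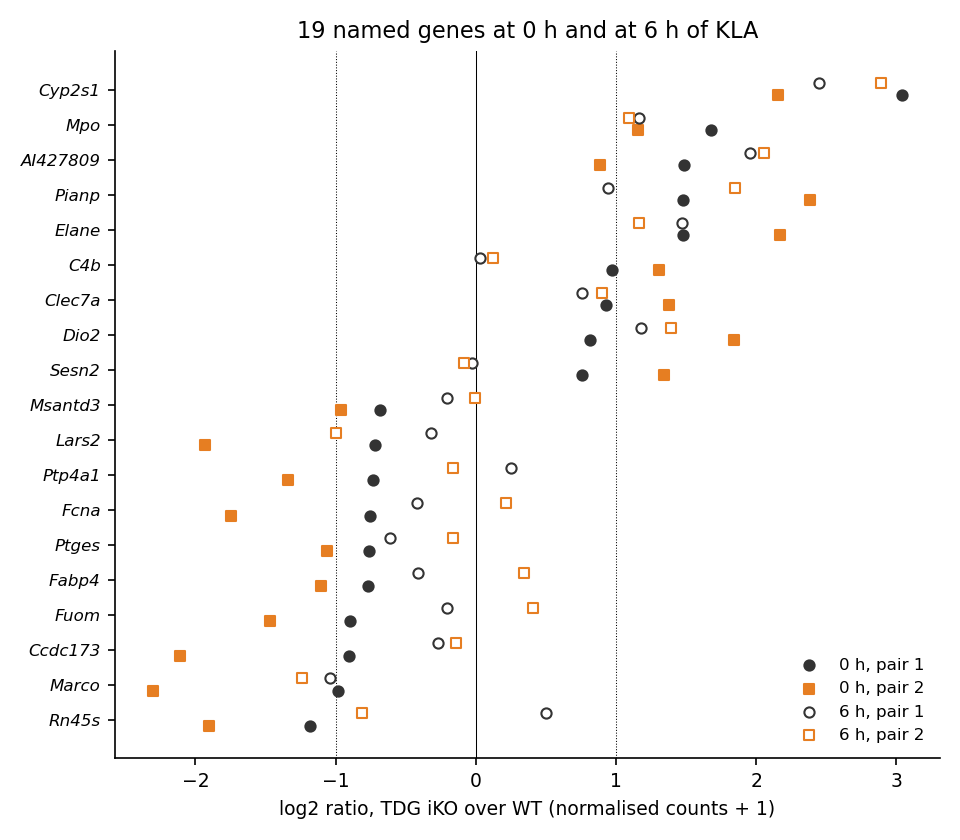
Log2 ratio of TDG iKO over WT (x axis) in the 2 pairs at 0 h (filled) and at 6 h of KLA (open) for 19 of the 20 genes (y axis), with dotted lines at 2-fold. The 0 h ratios chose the genes. The 6 h ratios of Cyp2s1, Mpo, AI427809, Elane and Dio2 lie above 2-fold in both pairs and those of Marco below it, and none of the other 9 decreases is 2-fold lower in both 6 h pairs.

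The 6 h libraries are separate libraries of the same groups, and the same cultures may have given both times. Of the 6 genes at least 2-fold in both 0 h pairs, 4 (Cyp2s1, Elane, Mpo and Pianp) had the same direction in both 6 h pairs. Of all 9263 genes, 1992 were higher and 1945 lower in both 0 h pairs. Of these, 535 and 481 kept their direction in both 6 h pairs, so 1016 genes had 1 direction in all 4 pairs. Only 3 genes (Cyp2s1, Elane and Mpo) were at least 2-fold in all 4 pairs. Marco was at least 1.97-fold lower in all 4. The 6 h contrast itself called 0 genes in DESeq2 without the block (34 at an unadjusted p under 0.05) and 0 with it (90), and no edgeR fit was made of it.

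Pair 1, with the narrow spread, held further 2-fold differences that pair 2 did not share, and these genes were chosen after their values were seen. Of the 21 genes at least 2-fold higher in pair 1, 10 (47.6%) had that direction in pair 2 and 5 were 2-fold there, while 18 had it in pair 1 at 6 h. Of all 9263 genes, whatever their size of change, 1992 (21.5%) were higher and 1945 (21%) lower in both pairs at 0 h. The share of all genes with 1 direction in pair 1 at both times is not given here. Plac8, expressed in myeloid progenitors and monocytes, had 1455 and 870 in iKO against 566 and 1595 in WT, and Chi3l3, a chitinase-like lectin of myeloid cells, 290 and 38.7 against 130 and 80.5. Both reversed between pairs. Of the 8 genes at least 2-fold lower in pair 1, 5 had that direction in pair 2 and 1 was 2-fold. Arg1, the arginase of alternatively activated macrophages, had 38.5 and 36.0 in iKO against 82.6 and 48.3 in WT, and Cbr2, a carbonyl reductase, 135 and 145 against 299 and 223. For both the iKO libraries were below both WT libraries, and the ratios were below 0 in all 4 pairs, at -0.85 and -1.53 for Arg1 and -0.46 and -0.46 for Cbr2 at 6 h.

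The cells carried the transcripts of macrophages in each library. Of 17 macrophage markers 15 reached a mean of 50, with Csf1r, the M-CSF receptor, at 18390 and 18990 in iKO and 19310 and 12080 in WT, Trem2 was at 0 in all 4 libraries, and 1 was not matched. In 6 of the 15 both pairs were lower and in 0 both were higher, against 21% and 21.5% of all genes. These counts were made without removing the length trend. The medians were -0.19 and 0.16, or -0.19 and 0.31 with the length trend removed. The 6 included Lyz2, lysozyme, with 138270 and 139050 in iKO against 174200 and 171590 in WT, and the 3 chains of C1q, the first component of complement. Lyz2 did not overlap between the groups, with ratios of -0.33 and -0.30. C1qa had -0.36 and -0.88. No dendritic, T, B or erythroid cell marker reached a mean of 50, and 5 of 6 erythroid markers were at 0 in all 4 libraries. The summed B cell markers were 59.6 and 12.4 in iKO and 48.4 and 55.2 in WT, and the osteoclast markers 1316.3 and 2415.9 against 1456.8 and 2285.0.

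DNA repair and methylation genes had medians close to 0 in pair 1. Of 22 base excision repair genes, 17 were measured at a mean of 50, with medians of 0.02 and -0.43. In both pairs 4 were higher and 6 lower, against 21.5% and 21% of all genes. With the length trend removed the medians were 0.03 and -0.15. Smug1, a uracil glycosylase, had 123 and 156 in iKO and 123 and 152 in WT. Mbd4, the other glycosylase for thymine opposite guanine, had 114 and 90.3 against 109 and 71.3. Xrcc1, the scaffold that brings ligase to the gap, had -0.24 and -0.31 at 0 h and -0.20 and -0.15 at 6 h, and Parp2, a sensor of strand breaks, 0.09 and 0.14 and then 0.15 and 0.25. Of 19 genes of DNA methylation and its readers 16 were measured, 3 higher and 1 lower in both pairs (medians -0.07 and 0.38). With the length trend removed these medians were -0.03 and 0.07. Mbd2, which binds methylated CpG, was within 0.03 of 0 in both pairs. Tet3 had 0.07 and 1.00 at 0 h but -0.64 and -0.16 at 6 h. Of 22 p53 targets 19 were measured (medians 0.09 and 0.43). Of these, 8 were higher and 1 lower in both pairs, against 21.5% and 21% of all genes. With the length trend removed the medians were 0.07 and 0.15, and at 6 h they were 0.18 and -0.10. The increases were led by Sesn2, which was chosen for that direction, and by Btg2, an antiproliferative gene, at 0.43 and 0.39. Cdkn1a, the cell cycle inhibitor p21, had 0.12 and -0.33.

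**Figure D5:**
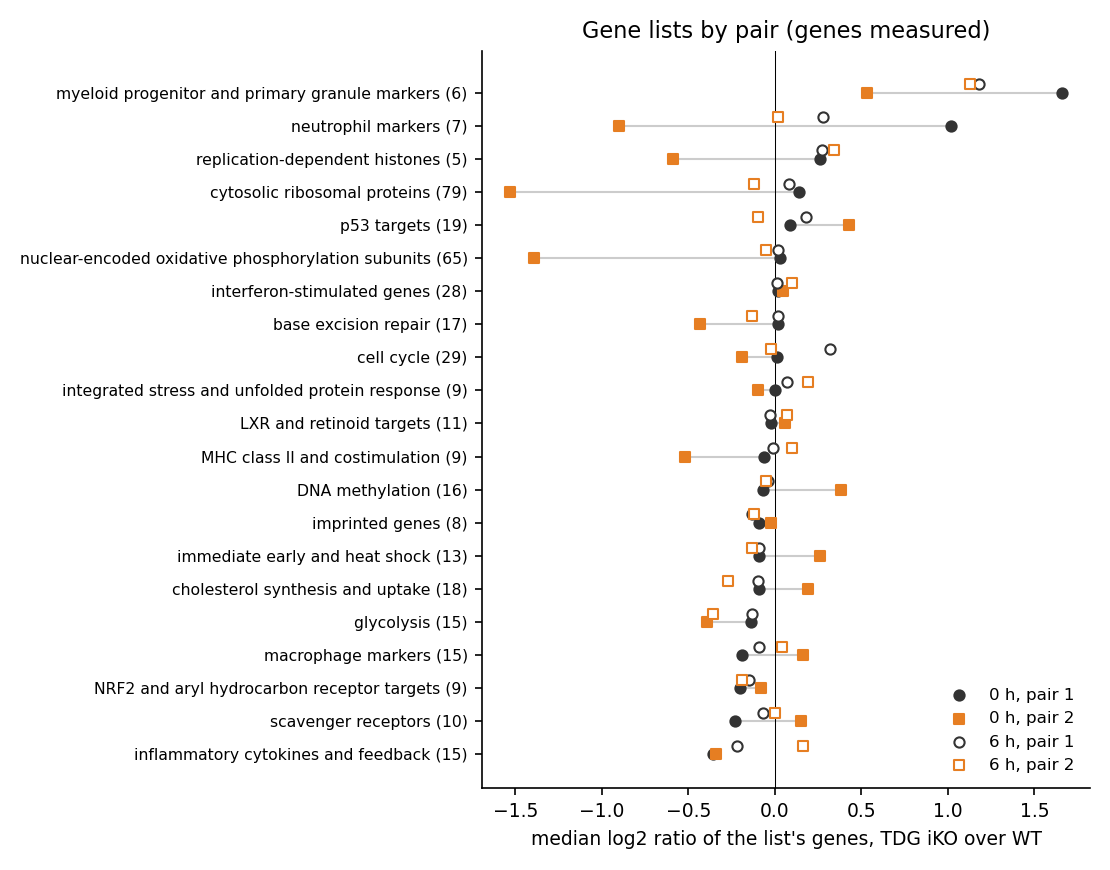
Median log2 ratio of TDG iKO over WT (x axis) for the gene lists with at least 5 genes at a mean of 50 (y axis, the number of genes in brackets), in the 2 pairs at 0 h (filled, joined by a line) and at 6 h of KLA (open). Progenitor and primary granule markers lie above 0 in all 4 pairs, and interferon-stimulated genes stay within 0.1 of 0. Glycolysis and NRF2 and aryl hydrocarbon receptor targets lie below 0 in all 4, and imprinted genes stay within 0.13 of 0. Ribosomal proteins and oxidative phosphorylation part between the pairs at 0 h.

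Glycolytic genes were mostly lower in iKO in both pairs, though none was called. Of 15 measured genes of 16, 10 were lower and 2 higher in both pairs, against 21% and 21.5% of all genes, and the medians were -0.14 and -0.39 at 0 h and -0.13 and -0.36 at 6 h. Slc16a3, the lactate exporter, had 656 and 508 in iKO against 889 and 911 in WT. It did not overlap between groups, and its ratios of -0.44 and -0.84 were -0.43 and -0.49 at 6 h. Pkm, pyruvate kinase, had -0.10 and -0.53, and Ldha, lactate dehydrogenase, -0.16 and -0.55. Of the targets of NRF2 and the aryl hydrocarbon receptor, 9 of 12 were measured, 0 higher and 4 lower in both pairs, against the same shares of all genes. Hmox1, heme oxygenase, had 8460 and 9225 in iKO and 12670 and 11640 in WT. Its groups did not overlap, and its ratios were -0.58 and -0.34 at 0 h and -0.44 and -0.58 at 6 h. Gclm, a subunit of the enzyme that starts glutathione synthesis, had -0.25 and -0.22, and -0.39 and -0.30 at 6 h.

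Inflammatory cytokines and feedback genes were lower in both pairs in 7 of 15 measured genes and higher in 0, against 21% and 21.5% of all genes, with medians of -0.36 and -0.34. The chemokine genes made up most of these. Ccl2, a chemoattractant of monocytes, had 3068 and 3587 in iKO against 4546 and 4807 in WT, and the related Ccl7 3496 and 3978 against 5157 and 9913. Both had groups that did not overlap. Ccl4 had 453 and 423 against 602 and 815, and Cd40, a costimulatory receptor, had ratios of -0.65 and -0.52. With the length trend removed the list's median in pair 2 was 0.35, and at 6 h the medians were -0.22 and 0.16. Interferon-stimulated genes had medians of 0.02 and 0.05 over 28 genes, 9 higher and 6 lower in both pairs. Ifi44 was the member with the largest shared ratio, 0.38 and 0.49 at 0 h and 0.43 and 0.43 at 6 h.

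The 6 genes near enhancers that gain 5-hydroxymethylcytosine on stimulation, taken from the study's design, gave no call in the unstimulated cells. Alcam, an adhesion molecule, had 1661 and 2100 in iKO and 2127 and 1583 in WT, and Mdfic, a transcription regulator, 2895 and 3358 against 2978 and 2499. Batf, a factor of the AP-1 family, had 80.7 and 85.9 against 68.3 and 140. Il1b, the cytokine IL-1 beta, had 275 and 45.2 against 144 and 145. In each of these 4 the pairs went opposite ways. Ptgs2, cyclooxygenase-2, was lower in both iKO libraries at 20.2 and 23.1 against 26.6 and 32.2, and Il6 had raw counts of 5 and 5 in iKO and 2 and 0 in WT, too few for a fold. The adjusted p of each of the 6 was 1 in DESeq2.

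Genes of the ribosome and of respiration parted between the pairs. The 79 measured cytosolic ribosomal protein genes had a median of 0.14 in pair 1 and -1.53 in pair 2, and 65 subunits of oxidative phosphorylation 0.03 and -1.39. With the length trend removed the pair 2 medians were still -0.77 and -0.60, and at 6 h all 4 medians lay between -0.12 and 0.08. Of these 2 lists 17 and 27 genes had an unadjusted p under 0.05 in the DESeq2 fit and 0 were called. Cell cycle genes had medians of 0.01 and -0.19 over 29 genes, 6 higher and 7 lower in both pairs. The remaining lists gave 3 higher and 4 lower of 18 for cholesterol synthesis, 2 and 3 of 11 for LXR and retinoid targets, 1 and 4 of 9 for MHC class II, 1 and 2 of 13 for immediate early genes, 3 and 3 of 9 for the integrated stress response, and 1 and 2 of 8 for imprinted genes. Over all genes 21.5% were higher and 21% lower in both pairs. Of 12 germline genes, 0 reached a mean of 50.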

How the data were processed

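RNA-seq was done on polyA-selected RNA of BMDMs with NEBNext Ultra II Directional libraries and paired reads, on a HiSeq or a NovaSeq (which instrument took which library is not given in the sources used here). The authors aligned reads to mm9 with HISAT2 and counted read pairs per gene with HTSeq-count, and they analysed the counts with DESeq2 1.30.0. The gene annotation and the strand setting are not given in the sources used here. The deposited values are raw counts per gene symbol in 1 file per library, and 5 tally rows (not aligned, several places, no gene and the like) were kept out of library sizes and tests. Of 23420 symbols, 22035 (94.1%) matched a length in the mm9 annotation.

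Counts of the 8 BMDM libraries of the Tdg experiment (TDG iKO and WT, 0 h and 6 h, 2 each) were fitted with DESeq2 1.42.0 (R 4.3.3, Wald test, Benjamini-Hochberg over all genes with a count) as 4 groups without a block, with TDG iKO against WT at 0 h as the contrast. The study's methods name DESeq2 and the 0.05 threshold but not the design formula. The alternatives were the replicate number as a block, the edgeR 4.0.16 quasi-likelihood test, TMM factors, a minimum of 10 counts in 2 libraries, the 4 libraries at 0 h alone, length offsets (a natural spline with 4 degrees of freedom on log2 exonic length for each library) and leaving out each library. Pair ratios used a pseudocount of 1 and the genes with a mean of at least 50. Counts of list genes higher or lower in both pairs were made without length offsets. Libraries of the Tet experiment were scaled to the same size factors and given as values. The fitting script was tested on simulated data.

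The genes named are Tdg and Ndor1, 6 genes near enhancers, those called with or without the block, the 10 highest and 10 lowest by the smaller pair ratio, and up to 4 by ratio and 2 by mean level from each of 30 lists. Genes that matched the rule in a list but added nothing to the counts were left to those counts, and genes chosen after their values were seen are marked so. A gene that the rule names is not reported here. The members and lists were chosen with earlier results of these data known. Tdg copies were found by aligning the annotated transcript to mm9 with minimap2 2.31, and start regions come from RefSeq (GRCm38.p6), where 15 of the 20 highest and lowest genes had an entry. Deviations of same-numbered iKO and WT libraries from their group means correlated at 0.313 at 0 h (0.454 with length offsets) and 0.822 at 6 h across 9241 genes, from 2 pairs a time.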

Additional observations from a re-analysis of the deposited data

How the results depend on the processing

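The number of genes called by DESeq2 for TDG iKO against WT at 0 h was 0 without the block, and also with edgeR, TMM factors, the count filter or only the 4 libraries at 0 h. It was 4 with the replicate block, 1 (Marco) with length offsets and 3 (Marco, Mpo and Rn45s) with length offsets and the replicate block. Leaving out each library gave 0 to 1184 calls. The 1184 came without WT replicate 1, when the shallow WT replicate 2 stood alone for WT and was assumed to vary like the other groups, and without WT replicate 2 there were 2 (Atp6v1c1 and Cyp2s1). The 4 calls with the block became 0 in edgeR with the block, 0 with the block in the 4 libraries at 0 h and 0 with no replicate block, and 0 to 2971 when each library was left out, with 2971 without WT replicate 1, 1 (Marco) without iKO replicate 1 and 5 (Cyp2s1, Mpo, Marco, Ctsg and Prtn3) without WT replicate 2. The cause was not tested.

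The genes at least 2-fold higher in both pairs numbered 8 after length offsets and 1 at a mean of at least 200, with pairs crossed 7 were 2-fold higher and 5 lower, and those with both iKO libraries above both WT libraries 581 at a mean of at least 200, where fewer genes were tested.

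Among the values of named genes under the alternatives, 296 kept direction and side of the threshold, 19 came under it and 19 turned. Alcam turned to -0.04 with the block, -0.20 with length offsets and -0.22 with both, and ranged from -0.17 to 0.24 when libraries were left out. Batf turned to 0.24 and 0.22 with length offsets without and with the block (-0.76 to 0.30 without single libraries), Mdfic to -0.04 and -0.04, and Il1b to -0.06 with the block and -0.35 in the 4 libraries with it (-1.68 to 0.94 without single libraries). Over the left-out libraries the log2 fold change ran from -4.16 to 0.00 for Tdg (a fitted value on 0 or 1 counts, which is no bound), from -0.79 to 3.57 for Mpo, from -1.92 to 5.82 for Elane, from -2.84 to 0.04 for Ccdc173, from -1.72 to 0.01 for Ptges and from -2.68 to 0.27 for Lars2. WT replicate 2 was the library whose absence turned Ccdc173, Ptges and Lars2, and iKO replicate 1 for Mpo and Elane. The list medians were set against the spread between their 2 pairs, which is wide. Of the values, 65 stayed within it and 4 moved, all with length offsets. The 65 include the medians from 1 pair alone, which define that spread and so could not leave it. Using pair 2 or pair 1 alone, the ribosomal protein median of -0.69 became -1.53 or 0.14, that of oxidative phosphorylation (-0.68) -1.39 or 0.03, and that of neutrophil markers (0.06) -0.90 or 1.02.

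WT replicate 2, with the fewest counts, the lower alignment and the length trend, limits every value of pair 2, and with 2 libraries a group no 0 h difference has more than 2 pairs behind it.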
